A study of Mus musculus with 60 samples.

Results

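Hepatocyte growth factor (HGF) was compared with no stimulus in primary mouse hepatocytes at the earliest hours of the time course, 0.5 and 2 h. The comparison rests on 8 of the 60 arrays of the series, chosen by their labels alone: 4 arrays of cells given HGF and 4 of unstimulated cells, with 2 arrays of each kind at each hour. Cells came from wild-type male C57BL/6N mice 8 to 12 weeks old, were plated on collagen I and spent the last 24 h before stimulation without serum. HGF was recombinant mouse protein at 40 ng/ml. All groups, unstimulated cells included, were cultured with 100 nM dexamethasone, a glucocorticoid that itself acts on hepatocyte genes. Another 8 arrays of the same hours serve as a second reference: 4 of cells given 40 ng/ml recombinant human interleukin 6 (IL-6, written IL6 in the labels) and 4 of cells given IL-6 with HGF, at the same doses. Each preparation used cells of a single animal or, where needed, a pool of several. The labels tie no array to an animal. Biological triplicates are named for the series, but 2 arrays a group were analysed here, so the spread behind each p-value is that between arrays and may be technical.

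HGF binds the receptor tyrosine kinase MET on hepatocytes. Active MET recruits the adaptor GAB1 and signals through RAS and ERK, PI3K and AKT, and STAT3. ERK switches on immediate early genes within minutes by way of preformed factors such as SRF with its ternary complex partners, which bind CArG boxes. The products of these genes include transcription factors, secreted ligands and phosphatases that later switch ERK off, and AKT keeps FOXO factors out of the nucleus. In liver this receptor is known for its part in regeneration after tissue loss.

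Affymetrix arrays report a log2 intensity for each probe set, and 14513 genes passed the intensity filter. A difference below is a log2 difference between means of 2 arrays, with the standard error (SE) of a linear model over all 60 arrays. "Rose" and "fell" are used at an adjusted p below 0.05. Levels of different genes are not set against each other, since probe sets differ in response, and a lower value cannot tell fewer cells from less RNA per cell.

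The unstimulated arrays stood apart in how their RNA was labelled, which has to be known before any result is read. The spiked dap transcript, added to the RNA before labelling, had a 3' minus 5' log2 difference of 1.18 to 1.33 on the 4 unstimulated arrays and of 2.61 to 2.86 on the 4 HGF arrays. IL-6 arrays of the same hours lay at 2.46 to 2.74 and arrays with both factors at 2.59 to 2.84, near those of HGF. Actin beta was likewise lowest without stimulus, at 0.21 to 0.25. It was 0.41 to 0.48 with HGF, 0.37 to 0.43 with IL-6 and 0.46 to 0.56 with both. The hybridisation control bioB, added later, lay at 8.65 to 8.89 without stimulus, at 8.70 and 8.79 with HGF at 0.5 h, at 6.87 and 6.91 with HGF at 2 h, at 7.50 to 7.59 with IL-6 and at 6.25 to 6.70 with both factors. HGF and unstimulated arrays therefore cross a labelling class at both hours, and for these arrays class and stimulus cannot be told apart. HGF minus IL-6, and IL-6 with HGF minus IL-6, lie within the class set by dap, though bioB differs within it. Actin beta at 0.5 h was 0.41 to 0.42 with IL-6 and 0.50 to 0.51 with both factors. At 2 h it was 0.37 to 0.43 and 0.46 to 0.56. Gapdh, also 3' minus 5', was 0.10 to 0.15 with IL-6 and 0.22 to 0.24 with both factors at 2 h. The part of these controls in either comparison was not tested. For many genes below, values from the IL-6 arrays are given beside the comparison with unstimulated cells. Where none are given, the difference crosses the labelling class. Arrays of a group correlated at 0.997 to 0.998.

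**Figure D1:**
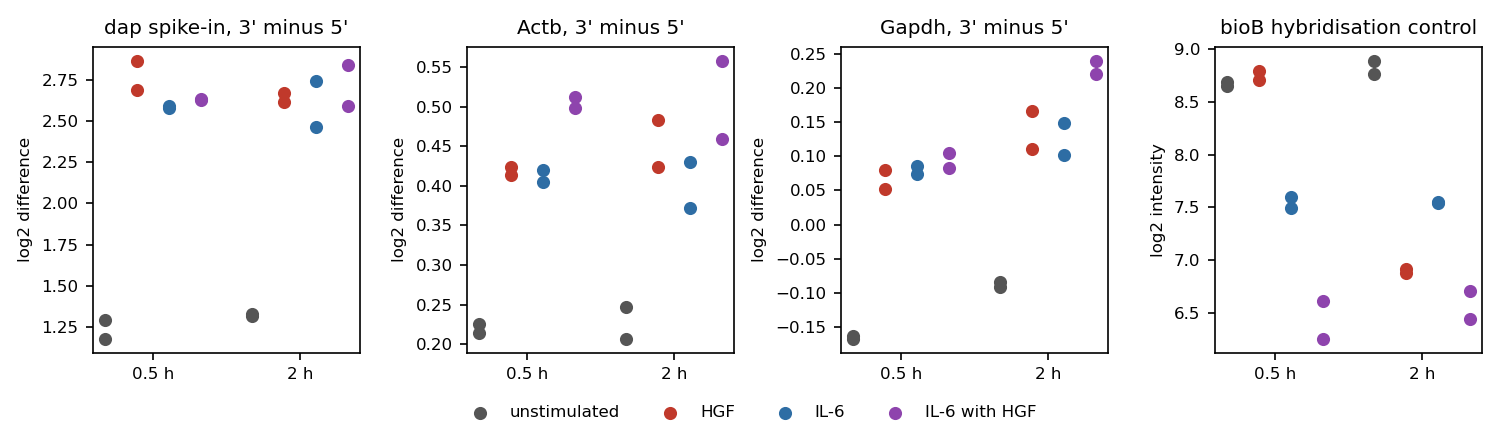
Labelling and hybridisation controls on each of the 16 arrays at 0.5 and 2 h, 1 point per array. Panels give the log2 difference between 3' and 5' probe sets of dap, actin beta and Gapdh, and the log2 intensity of bioB. Unstimulated arrays sit at 1.18 to 1.33 for dap and all others at 2.46 or above.

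At 0.5 h, 2933 genes differed between HGF and unstimulated cells (20.2% of those tested), 1687 higher (11.6%) and 1246 lower (8.59%). At 2 h, 4510 differed (31.1%), 2207 higher (15.2%) and 2303 lower (15.9%). Most of these differences were small: the median size over all genes was 0.12 at 0.5 h and 0.14 at 2 h, and a 2-fold change was passed by 2 higher (0.0138%) and 5 lower genes (0.0345%) at 0.5 h, and by 35 higher (0.241%) and 15 lower genes (0.103%) at 2 h. Against IL-6 cells of the same hour, 49 genes (0.338%) differed at 0.5 h, 30 higher (0.207%) and 19 lower (0.131%). At 2 h 1235 (8.51%) differed, 845 higher (5.82%) and 390 lower (2.69%). Counts at 0.5 h leaned on single arrays: the higher genes numbered 961 without the second unstimulated array and 1017 without the second HGF array, and the lower genes 767 without that HGF array. The 49 genes became 25 without the second HGF array, 23 without the first IL-6 array and 153 without the second. At 2 h the 1235 genes became 638 without the second HGF array, 749 without the first IL-6 array and 721 without the second.

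The comparison of IL-6 with HGF against IL-6 shares no array with HGF against unstimulated cells. It called 671 genes at 0.5 h (4.62%), 506 higher (3.49%) and 165 lower (1.14%). At 2 h it called 1244 (8.57%), 751 higher (5.17%) and 493 lower (3.4%). Genes called in both, in the same direction, numbered 235 higher (1.62%) and 9 lower (0.062%) at 0.5 h, and 519 higher (3.58%) and 267 lower (1.84%) at 2 h. Of the 1687 genes higher with HGF at 0.5 h, 91.2% were also higher when HGF was added to IL-6, where 60.7% of all genes had that sign. Of the 1246 lower genes 47.2% were lower there too, against 39.3% of all genes. At 2 h the shares were 81.0% of the higher genes against 48.7% of all, and 71.5% of the lower genes against 51.3%. Across the 14513 genes the differences of the 2 comparisons correlated at r = 0.20 at 0.5 h and 0.42 at 2 h, a description over genes that are not independent replicates. The 0.5 h counts again rested on few arrays. Without the first IL-6 array, 28 of the 671 calls were made and the 235 higher genes became 16. Leaving out the first or second array with both factors gave 103 or 127 calls, and 34 or 50 genes higher in both comparisons. Without the second unstimulated or the second HGF array, 153 or 154 genes were higher in both. The 9 lower genes became 0, 15, 1 or 2 without the first IL-6, second IL-6, first or second array with both factors. At 2 h, the 1244 calls became 672 and 612 without the first and second IL-6 array, and 558 and 769 without the first and second array with both factors. The 519 higher genes became 297 and 307 without the first and second IL-6 array, and 240 without the first array with both factors. The 267 lower genes became 99 without the second IL-6 array, and 136 and 147 without the first and second array with both factors.

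**Figure D2:**
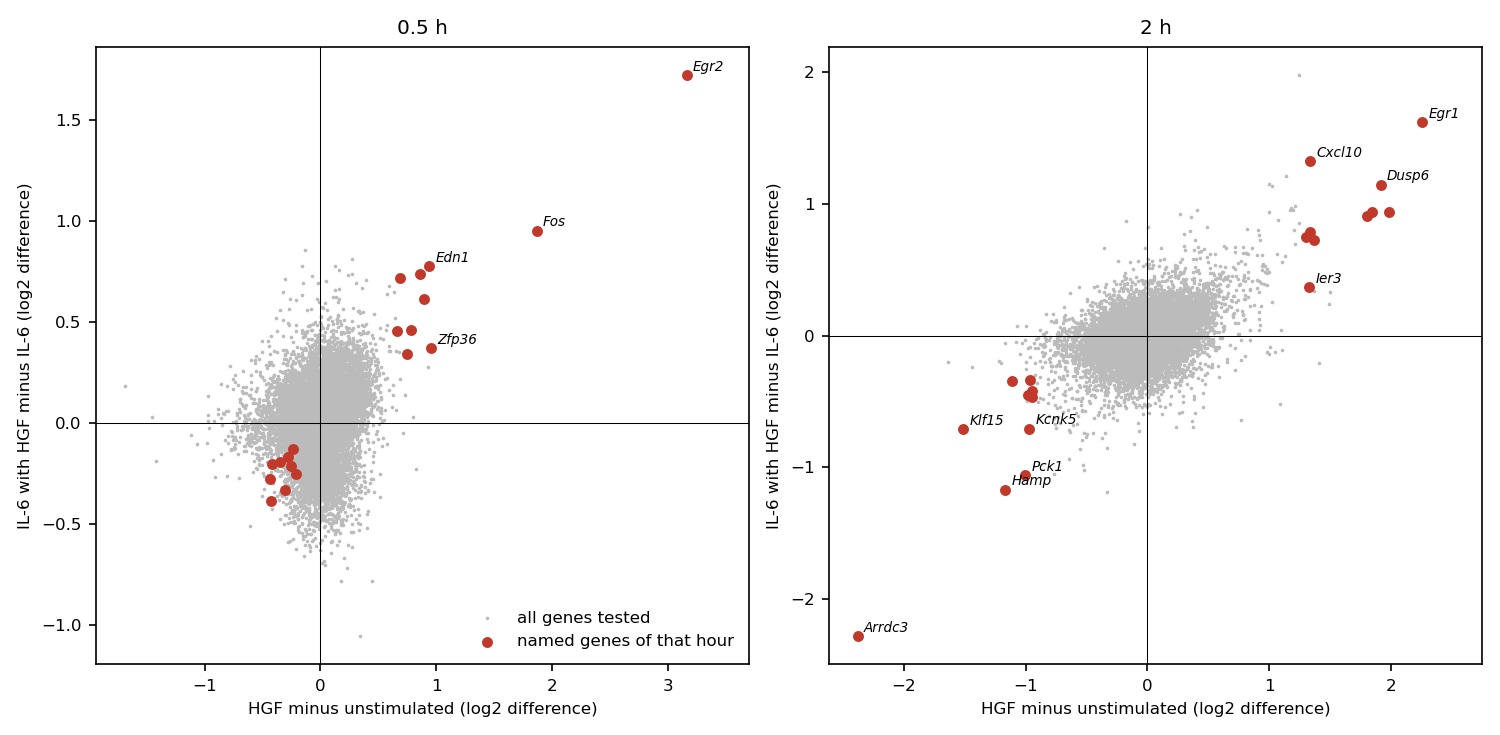
HGF minus unstimulated (horizontal axis) against IL-6 with HGF minus IL-6 (vertical axis), both as log2 differences, for all 14513 genes (grey) and the largest rises and falls called in both comparisons at that hour (red). At 0.5 h Egr2 and Fos stand alone at the upper right, and at 2 h Arrdc3 stands alone at the lower left. Passing in both comparisons is how the red genes were chosen.

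The largest rise at 0.5 h was that of Egr2, a zinc finger factor of the early growth response family. Its log2 intensities were 4.21 and 4.02 in unstimulated cells and 7.03 and 7.53 with HGF. IL-6 arrays lay in between at 6.29 and 6.37, and arrays with both factors highest at 8.15 and 7.96. None of the 4 groups overlapped. HGF exceeded no stimulus by 3.16 (SE 0.17, adjusted p = 2.75e-18) and IL-6 by 0.95 (adjusted p = 0.00102).

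Fos, the AP-1 subunit whose promoter is the textbook target of SRF, followed. Levels were 9.94 and 10.03 without stimulus and 11.84 and 11.87 with HGF. IL-6 gave 11.33 and 11.35, and both factors gave 12.33 and 12.26. The 4 groups again kept the order seen for Egr2 without overlap. The HGF difference was 1.87 (SE 0.11, adjusted p = 1.89e-17), with 0.52 against IL-6 (adjusted p = 0.00967). Egr2 and Fos were the 2 genes that passed a 2-fold rise at 0.5 h, and both passed against IL-6 as well.

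Promoter windows of 250 bases before to 50 after each RefSeq start (build GRCm38.p6) were searched on both strands for 4 motifs: the CArG box that SRF binds, the cyclic AMP response element TGACGTCA, the AP-1 site TGANTCA and the EGR site GCGTGGGCG. Over all 32851 windows these occur in 1.63%, 1.79%, 7.81% and 0.612%. The last of them was in no window of the named rises. Of the 10 named rises at 0.5 h 7 matched the promoter table, and so did 7 of the 10 at 2 h. Ier2, Hbegf, Pmaip1, Egr1 and Rrad are the other named rises. CArG boxes lay in the windows of 2 of the 7 matched rises at 0.5 h, Egr2 and Zfp36. At 2 h they lay in 1 of the 7, Dusp5. Counted by gene, 1.81% of all genes in the promoter table have such a box. Fos matched the table and has none within its window. The boxes found are shown in capitals below on the gene's own strand, and the part of SRF in these rises was not tested. In Egr2 the box begins 72 bases before the start, and 4 of its 5 listed starts have one in their window. In Zfp36 it begins 58 bases before, and Dusp5 holds a pair end to end at 82 and 72 bases before its start.
Egr2, chr10:67537464-67537533, plus strand: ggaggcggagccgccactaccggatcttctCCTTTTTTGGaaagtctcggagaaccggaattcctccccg
Zfp36, chr7:28379247-28379316, minus strand: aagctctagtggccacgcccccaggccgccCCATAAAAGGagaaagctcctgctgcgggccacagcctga
Dusp5, chr19:53529033-53529112, plus strand: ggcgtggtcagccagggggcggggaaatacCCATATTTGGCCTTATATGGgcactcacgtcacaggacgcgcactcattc

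Other motifs lay upstream of Btg2, an antiproliferative partner of the mRNA deadenylation complex, and of Ivl and Cxcl10, which rose at 2 h. Btg2 holds a cyclic AMP response element 166 bases before its start, Ivl an AP-1 site 116 bases before and Cxcl10 an AP-1 site 74 bases before, capitalised here. A match describes letters, not binding.
Btg2, chr1:134079284-134079351, minus strand: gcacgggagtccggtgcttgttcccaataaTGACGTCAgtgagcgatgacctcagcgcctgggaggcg
Ivl, chr3:92573815-92573881, minus strand: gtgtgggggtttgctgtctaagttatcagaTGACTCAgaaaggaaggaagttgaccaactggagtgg
Cxcl10, chr5:92348927-92348993, minus strand: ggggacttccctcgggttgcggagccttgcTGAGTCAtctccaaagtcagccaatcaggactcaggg

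AP-1 subunits and their relatives changed in sequence. Of 11 tested members, 5 rose and 0 fell at 0.5 h, and 7 rose and 1 fell at 2 h, with medians of 0.10 and 0.41 beside 0.01 and -0.02 over all genes. All 5 and all 8 also passed in the same direction when HGF was added to IL-6. For this and every later list, the shares over all genes were 11.6% higher and 8.59% lower at 0.5 h. At 2 h they were 15.2% and 15.9%. Of all genes, 1.62% were higher and 0.062% lower in both comparisons at 0.5 h, and 3.58% and 1.84% at 2 h. Jun, the main dimer partner of Fos, read 9.82 and 9.80 without stimulus, 10.46 and 10.48 with HGF and 9.99 and 10.07 with IL-6 at 0.5 h. By 2 h it stood at 9.97 and 9.95 without stimulus and 9.75 and 9.79 with HGF, so that the groups stayed apart but changed places. The difference was 0.66 (SE 0.05, adjusted p = 2.93e-12) and then -0.19 (adjusted p = 0.00509), and a second probe set of Jun gave -0.58 at the later hour. Atf3, a stress-responsive relative that can repress AP-1 sites, rose by 0.86 at 0.5 h and 0.61 at 2 h. Its differences from IL-6 were 0.38 and -0.09.

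Fosl1 (FRA-1), which AP-1 itself is known to induce, passed the test at 2 h and not at 0.5 h. At 0.5 h the HGF arrays read 8.37 and 8.61 and the unstimulated ones 8.48 and 8.53. At 2 h, HGF read 9.68 and 9.74 against 8.49 and 8.57 without stimulus, 8.39 and 8.50 with IL-6 and 9.37 and 9.47 with both. The 4 arrays with HGF lay above the 4 without it. The 2 h rise was 1.18 (SE 0.09, adjusted p = 1.51e-14), against IL-6 it was 1.26, and a dimmer probe set gave 0.12. Maff, a small MAF factor that pairs with NRF2, rose by 0.24 and then 0.82 (0.16 and 0.65 over IL-6).

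EGR factors and other immediate early genes gave 9 rises and 0 falls among 22 at 0.5 h, and 12 rises and 1 fall at 2 h, with medians of 0.23 at both hours. Ier2, a nuclear protein of unsettled function, read 10.76 and 10.72 without stimulus, 11.66 and 11.61 with HGF and 10.97 and 10.93 with IL-6. HGF stood above both references without overlap, by 0.89 (SE 0.06, adjusted p = 4.38e-15) and 0.68. Btg2, shown above for its upstream element, rose by 0.75 at 0.5 h and 0.72 at 2 h, and its excess over IL-6 was 0.36 and then 0.15, the latter with an adjusted p of 0.126.

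Egr1 gave the largest 2 h rise over unstimulated cells among the named genes, at an hour when its level was lower than at 0.5 h in both arms. Unstimulated cells held 10.76 to 10.997 before stimulation, 12.14 and 12.17 at 0.5 h, and 8.82 and 9.17 at 2 h. HGF cells held 13.05 and 13.12, then 11.20 and 11.31. Both arms were thus high at 0.5 h and lower at 2 h, with a change of -3.16 without stimulus and -1.83 with HGF. The HGF difference was 0.93 at 0.5 h and 2.26 at 2 h (SE 0.09, adjusted p = 3.77e-24). Against IL-6 it was 0.21 at 0.5 h, with an adjusted p of 0.384, and 0.65 at 2 h (adjusted p = 5.52e-07). Fos behaved alike in unstimulated cells, at 8.18 to 8.60 before stimulation and 7.28 and 7.26 at 2 h, a change of -2.72 from 0.5 h. Atf3 changed by -1.53 and Ier2 by -1.19 there over the same time. At 0.5 h the unstimulated arrays of Egr1 and Fos thus lay above all 4 arrays taken before stimulation, and what moved them was not tested.

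Among secreted and effector products at 0.5 h, Edn1, the precursor of the vasoconstrictor endothelin 1, set HGF apart from IL-6 most clearly. It read 8.52 and 8.43 with HGF against 7.50 and 7.58 without stimulus and 7.29 and 7.32 with IL-6. Both factors together gave 8.06 and 8.10. Arrays with HGF were high and IL-6 arrays lowest, and at 2 h all 8 arrays of the 4 groups lay between 6.71 and 6.999. The 0.5 h rise was 0.94 (SE 0.09, adjusted p = 3.7e-11), and it was 1.17 against IL-6 (adjusted p = 1.26e-13). Pmaip1 (NOXA), a BH3-only protein that promotes apoptosis, rose by 0.69 at 0.5 h and 0.60 at 2 h, and exceeded IL-6 by 0.79 and 0.63.

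**Figure D3:**
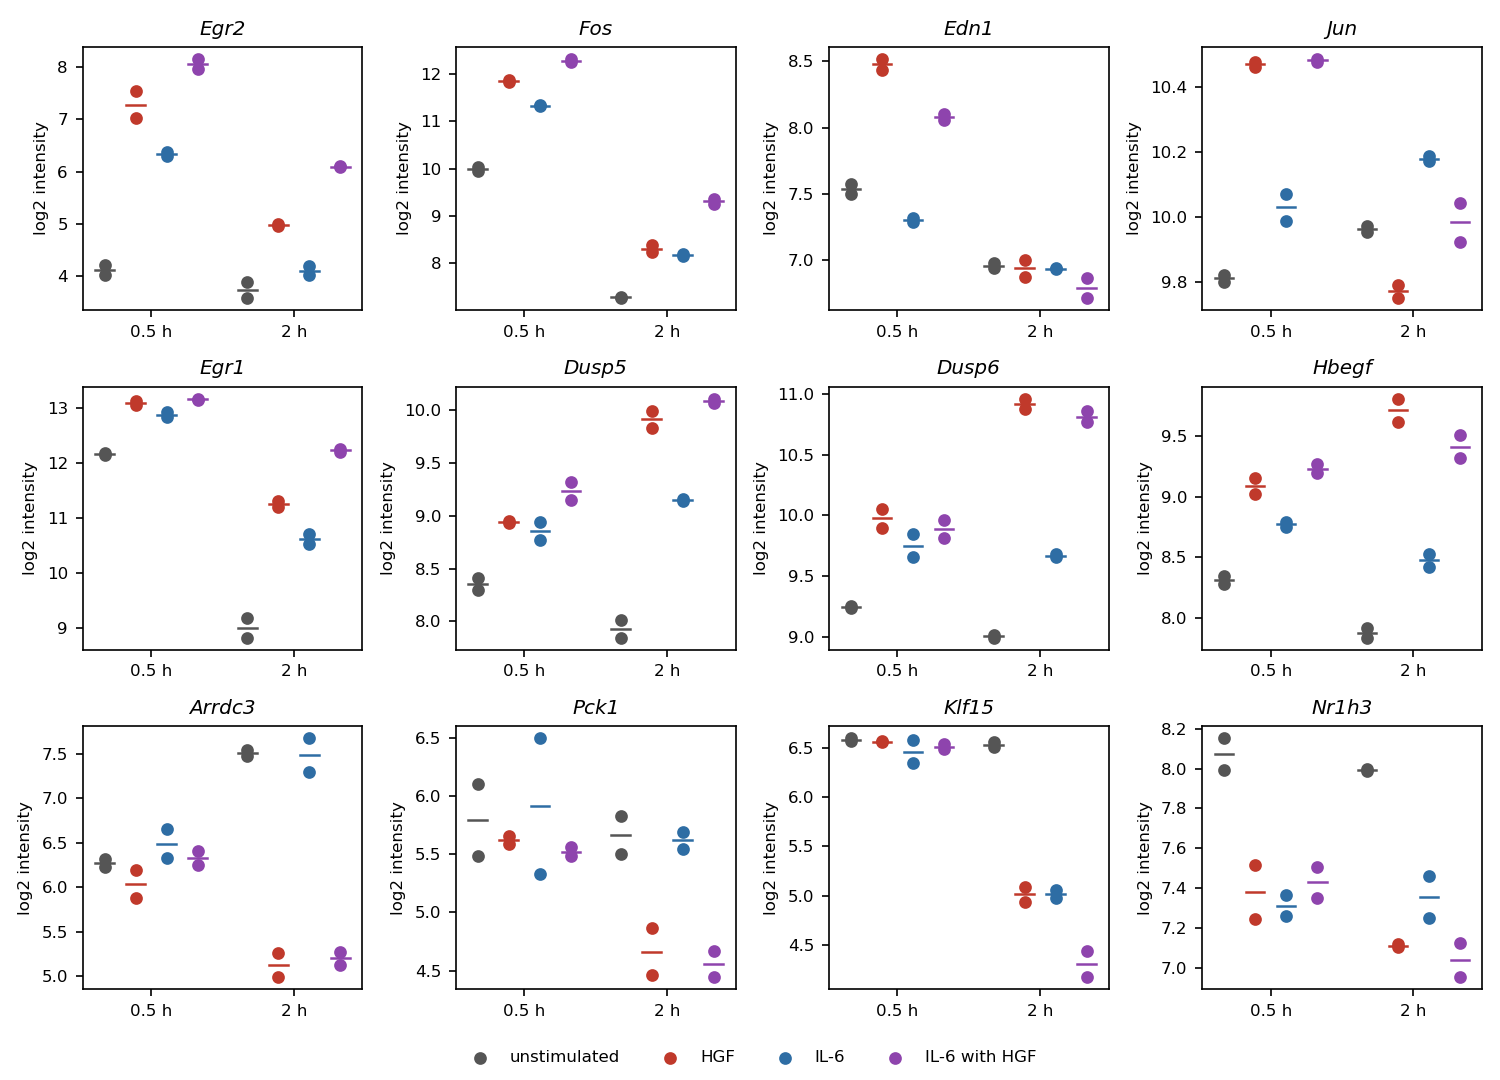
Log2 intensity of 12 genes on each of the 16 arrays at 0.5 and 2 h, with a bar at each group mean. Vertical scales differ between panels. Egr2, Fos, Edn1 and Jun are highest on arrays with HGF at 0.5 h, Dusp5, Dusp6 and Hbegf on arrays with HGF at 2 h. Klf15 is as low with IL-6 as with HGF at 2 h, and Nr1h3 is high on unstimulated arrays alone.

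Zfp36 and Gadd45g rose with HGF but more with IL-6. Zfp36 (tristetraprolin), which destabilises AU-rich mRNAs, read 8.28 and 8.29 without stimulus, 9.19 and 9.30 with HGF and 10.30 and 10.43 with IL-6. Its HGF difference was 0.96 (SE 0.08, adjusted p = 4.09e-12), and HGF stood below IL-6 by a difference of -1.12. Gadd45g, a growth arrest and stress sensor, read 7.01 and 6.88, 7.78 and 7.76, and 9.48 and 9.29 in the same order. It rose by 0.82 at 0.5 h and fell at 2 h, with a difference of -0.53, and against IL-6 it was lower at both hours, by -1.61 and -1.94.

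Genes that rose at 0.5 h against unstimulated and against IL-6 cells, comparisons that share the HGF arrays, numbered 24 (0.165%), and 18 of them also rose when HGF was added to IL-6 (0.124%). Beside Egr2, Fos, Jun, Atf3, Ier2, Btg2, Edn1, Pmaip1 and Ccn1 they held genes noted after their values were seen, Ier5 among them. Ccn1 (CYR61), a matrix protein and YAP target, rose by 0.45, and 4 probe sets agreed in sign. Dusp1, a nuclear MAP kinase phosphatase, rose by 0.39 and F3, the cell-surface starter of coagulation known as tissue factor, by 0.58. Adamts1, a matrix protease, rose by 0.47, Plk2, a stress-responsive kinase, by 0.40, and Fgf21, a hepatic metabolic hormone, by 0.49. Plk2 and Fgf21 did not pass when HGF was added to IL-6. Genes lower against both references numbered 3 (0.0207%). Of these Efna1, a membrane-bound ligand of EPH receptors, had an HGF difference of -0.63 and Gadd45b one of -0.28. Angptl4, an inhibitor of lipoprotein lipase, had one of -0.29. IL-6 raised Gadd45b by 0.65 and Angptl4 by 0.41 over unstimulated cells, which adds to their gap against that reference.

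Falls at 0.5 h were few once IL-6 served as reference. Of the 5 genes that fell 2-fold, 0 passed against IL-6. Ctse, an aspartic protease, Lgals9, a galectin, and Rnf39 gave HGF differences of -1.69, -1.42 and -1.46, and IL-6 differences from the same unstimulated arrays of -1.77, -1.34 and -1.52. Habp2, a plasma serine protease, gave -1.06 and -0.92, and Mlf2 gave -1.12 and -1.05. The 9 genes that fell against unstimulated cells and also when HGF was added to IL-6 were Gstp3, Arrdc1, H2-D1, Ifitm3, Pmf1, Fis1, Tspo, Gpx4 and Orm2, with HGF differences of -0.43 to -0.21. Their differences from IL-6 lay between -0.19 and 0.00, and none passed there. A single probe set of 3 for Tspo and of 2 for Gpx4 was negative at 0.5 h, and the others gave 0.12 and 0.043, and 0.07. H2-D1, a class I histocompatibility antigen, has near-identical relatives whose transcripts its probe sets may share, as does the acute phase protein Orm2.

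Among the largest rises at 2 h, after Egr1, were feedback phosphatases of ERK. Dusp6, the cytoplasmic ERK phosphatase, read 8.99 and 9.02 without stimulus, 10.88 and 10.96 with HGF, 9.68 and 9.66 with IL-6 and 10.77 and 10.87 with both. Arrays with HGF, alone or with IL-6, lay above all others. The rise was 1.92 (SE 0.07, adjusted p = 7.6e-26), and 1.25 over IL-6 (adjusted p = 5.56e-19), after 0.73 at 0.5 h.

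Dusp5, its nuclear counterpart with the CArG pair printed above, read 7.85 and 8.01 without stimulus and 10.00 and 9.84 with HGF. IL-6 gave 9.16 and 9.14, and both factors 10.07 and 10.11. IL-6 alone was thus intermediate. The HGF rise was 1.99 (SE 0.12, adjusted p = 4.4e-18) and 0.77 over IL-6 (adjusted p = 2.78e-06).

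Of 20 genes for negative feedback on ERK and receptor kinases, 6 rose and 2 fell at 0.5 h, and 10 rose and 1 fell at 2 h, with medians of 0.13 and 0.15. At 2 h 11 of the 20 stood above IL-6 and 6 rose in both independent comparisons. Of all genes, 5.82% and 3.58% did so. Phlda1, an inhibitor of receptor kinase signalling, rose by 1.196 at 2 h (0.80 over IL-6). Spred1, a RAS inhibitor, rose by 1.02, but IL-6 arrays read 8.28 and 8.54 beside 8.27 and 8.53 with HGF, a difference of -0.01. Dusp4, chosen after its values were seen, read 5.88 and 6.099 without stimulus, 7.0 and 6.98 with HGF and 5.35 and 5.41 with IL-6, so that its 2 h excess was 1.00 over no stimulus and 1.61 over IL-6. The Sprouty genes Spry2 and Spry4 rose by 0.56 and 0.62 at 2 h and stood 0.53 and 0.57 over IL-6. Neither passed when HGF was added to IL-6. Spry2, at 3.94 and 4.01 without stimulus and 4.66 and 4.40 with HGF, lay near the intensity cut. Their relative Spry1 read 6.23 and 6.07 without stimulus and 6.25 and 5.85 with HGF.

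Hbegf, a membrane-anchored ligand of the EGF receptor, read 8.28 and 8.34 without stimulus and 9.02 and 9.16 with HGF at 0.5 h. At 2 h it read 7.83 and 7.91 without stimulus, 9.81 and 9.62 with HGF, 8.42 and 8.53 with IL-6 and 9.32 and 9.51 with both. Arrays with HGF lay above the others at both hours. The rise grew from 0.78 to 1.84 (SE 0.10, adjusted p = 8.12e-19 at 2 h), and the excess over IL-6 from 0.32, with an adjusted p of 0.188, to 1.24 (adjusted p = 3.33e-13).

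Of the 9 tested ligands and receptors of the EGF family 4 rose and 0 fell at 0.5 h, and 4 rose and 2 fell at 2 h, with medians of 0.23 and 0.30. Betacellulin (Btc), another EGF receptor ligand, rose by 0.62 at 2 h and by 0.30 over IL-6. Nrg4, a ligand of ERBB4, fell at 2 h, reading 9.63 and 9.52 without stimulus and 9.26 and 8.97 with HGF, a difference of -0.46. Tgfa gave 0.29 at 0.5 h, but its probe sets disagreed, and the mean over all of them gave -0.088. Egfr itself gave 0.28 and 0.30, with 6 probe sets between -0.27 and 0.30 at 2 h and a difference from IL-6 of -0.09, so its direction is uncertain. Areg did not pass the intensity filter.

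Of 19 genes for MET, its adaptors and HGF processing 6 rose and 3 fell at each hour, where 20.2% and 31.1% of all genes differed at 0.5 and 2 h. Medians were 0.10 and 0.05, and 0 and 1 of the 19 differed from IL-6 cells, where 0.338% and 8.51% of all genes did. Met rose by 0.26 (SE 0.05, adjusted p = 0.000272) at 0.5 h and 0.24 at 2 h, and stood 0.02 and 0.13 over IL-6, neither past the threshold. Gab1, the main docking protein of MET, read 8.04 and 7.97 without stimulus, 8.48 and 8.53 with HGF and 8.35 and 8.45 with IL-6 at 0.5 h, a rise of 0.50. Other Gab1 probe sets went lower, down to -0.56, and the mean over all of them gave -0.043. Hpn and Hgfac, proteases that activate HGF, fell by differences of -0.56 and -0.39 at 0.5 h, and IL-6 cells showed -0.41 and -0.35.

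Among 27 chemokines, cytokines and growth factors 4 rose and 2 fell at 0.5 h, and 8 rose and 2 fell at 2 h, with medians of 0.11 and 0.05. Of all genes, 20.2% differed at 0.5 h and 31.1% at 2 h. Cxcl10, an interferon-inducible chemokine that attracts T cells, read 6.45 and 6.70 without stimulus, 7.88 and 7.95 with HGF, 9.35 and 9.37 with IL-6 and 10.72 and 10.66 with both at 2 h. The 4 groups were fully apart, and cells with both factors stood highest. The HGF rise was 1.34 (SE 0.15, adjusted p = 1.15e-09), that on top of IL-6 was 1.33 (adjusted p = 8.98e-09), and HGF lay below IL-6 by a difference of -1.44.

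Cxcl2 and Cxcl3, chemokines of neutrophils named after their values were seen, rose with HGF by 1.37 and 1.41 at 2 h and exceeded IL-6 by 1.40 and 1.42. With both factors, Cxcl2 read 6.45 and 6.47 and Cxcl3 6.65 and 6.43, beside 7.55 and 7.49 and 8.06 and 8.27 with HGF alone. The HGF difference on top of IL-6 was 0.34 and -0.21, neither past the threshold. Of their relatives, Cxcl1 rose by 0.92 with HGF and differed from IL-6 by -0.05, and Cxcl5, also chosen after its values were seen, rose by 0.77 and differed from IL-6 by -0.20, neither difference from IL-6 past the threshold. Lif, a gp130 cytokine, read 5.52 and 5.57 without stimulus, 6.503 and 6.46 with HGF and 5.26 and 5.56 with IL-6, and rose by 0.94 (1.07 over IL-6). A dimmer Lif probe set gave 0.27 over no stimulus.

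STAT3 targets and parts of gp130 signalling gave 5 rises and 0 falls among 18 at 0.5 h, and 10 rises and 3 falls at 2 h, with medians of 0.11 and 0.23. Socs3, the feedback inhibitor of gp130, rose with HGF by 0.39 and 0.92, but lay below IL-6 by differences of -5.03 and -3.05, and HGF added 0.14 and 0.04 to IL-6. Cish, an inhibitor of STAT5 signalling, rose by 0.98 at 2 h and lay below IL-6 by a difference of -0.66. The IL-6 receptor Il6ra, chosen after its values were seen, read 7.56 and 7.75 without stimulus, 8.04 and 8.03 with HGF and 7.44 and 7.40 with IL-6. It rose by 0.38 over no stimulus, 0.62 over IL-6 and 0.65 on top of IL-6.

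Several genes with no large change at 0.5 h passed a 2-fold rise at 2 h. Ivl (involucrin), known as an envelope protein of keratinocytes, read 7.17 and 7.22 without stimulus, 8.98 and 9.03 with HGF, 7.69 and 7.67 with IL-6 and 8.54 and 8.64 with both. Arrays with HGF lay above the rest, by 1.81 (SE 0.27, adjusted p = 6.15e-07) and by 1.32 over IL-6. A dimmer Ivl probe set gave 0.62 over no stimulus. The AP-1 site of Ivl is printed above. Rrad, a RAS-related GTPase that blocks calcium channels, rose by 1.37 (1.12 over IL-6), and Zfp948, a zinc finger protein, by 1.34 (0.90 over IL-6). A dimmer Zfp948 probe set gave 0.28 over no stimulus. Sox9, a factor of bile duct and progenitor cells, read 6.95 and 7.09 without stimulus and 8.17 and 8.01 with HGF, and rose by 1.07 (0.50 over IL-6).

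The transcriptional repressor Klf10 read 6.63 and 6.79 without stimulus, 7.87 and 7.82 with HGF, 7.22 and 7.198 with IL-6 and 8.44 and 8.42 with both, and rose by 1.14 (0.64 over IL-6). Of 12 Kruppel-like factors 1 rose and 1 fell at 0.5 h, and 5 rose and 2 fell at 2 h, with medians of 0.09 and 0.06. The shares of all genes that differed were 20.2% and 31.1%. Klf16 rose by 0.38 and Klf9 by 0.34, the latter with 7 probe sets from -0.79 to 0.34. Zeb2, a repressor of E-cadherin, rose by 1.50 with 3 probe sets from 0.04 to 1.50, and Slc16a6, a monocarboxylate transporter, by 1.21. Over IL-6, Klf16, Klf9, Zeb2 and Slc16a6 stood 0.52, 0.29, 0.59 and 0.82 higher at 2 h.

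Actin, SRF and YAP targets gave 5 rises and 4 falls among 21 at 0.5 h and 5 rises and 7 falls at 2 h, with medians of 0.01 and -0.02. Ccn1 continued to rise, to 0.72 (0.83 over IL-6), and the muscle ankyrin protein Ankrd1 rose by 0.44 and 0.85 (0.18 and 0.24 over IL-6). The actin-binding Tpm1 and the YAP regulator Ajuba fell, with 2 h differences of -0.22 and -0.30, beside -0.16 and -0.42 with IL-6, and Tpm1 has a probe set at 0.33. Plasminogen activation, matrix and adhesion genes gave 2 rises and 2 falls among 23 at 0.5 h, then 7 and 2, with medians of 0.08 and -0.01. Beside both lists stand the 20.2% and 31.1% of all genes that differed at 0.5 and 2 h. Epha2, an EPH receptor, rose by 0.42 at 2 h (0.61 over IL-6). Thrombospondin 1 (Thbs1, chosen after its values were seen) read 8.43 and 8.42 without stimulus, 9.80 and 9.48 with HGF and 8.59 and 8.66 with IL-6, a rise of 1.21. Plaur, the urokinase receptor, fell at 0.5 h with a difference of -0.41 and stood 0.12 over IL-6 then, and 0.47 over it at 2 h. Cd44 gave 0.52 at 2 h, its other probe sets above the filter gave 0.17 and -0.0046, and the mean over all its probe sets, 1 below the filter included, gave 0.13.

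Over all genes, 571 (3.93%) rose and 158 (1.09%) fell at 2 h against both unstimulated and IL-6 cells, and 309 (2.13%) and 74 (0.51%) of them also when HGF was added to IL-6. Some large 2 h rises did not pass against IL-6. Of the 35 genes past a 2-fold rise, 25 also passed against IL-6. The other 10 included Ier3, a survival-linked early gene, at 9.78 and 9.76 without stimulus, 11.06 and 11.13 with HGF and 11.06 and 11.09 with IL-6. Its rise was 1.33 (SE 0.05, adjusted p = 3.77e-24), and its difference from IL-6 was 0.02. The tissue plasminogen activator Plat rose by 1.10, the nuclear noncoding RNA Malat1 by 1.09 and the cohesin loader Nipbl by 1.10, while IL-6 gave 1.16, 0.93 and 1.22. Noct, a clock-controlled phosphatase, rose by 1.303 with HGF and by 1.12 with IL-6, and HGF passed over IL-6 by 0.19 (adjusted p = 0.0387).

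**Figure D4:**
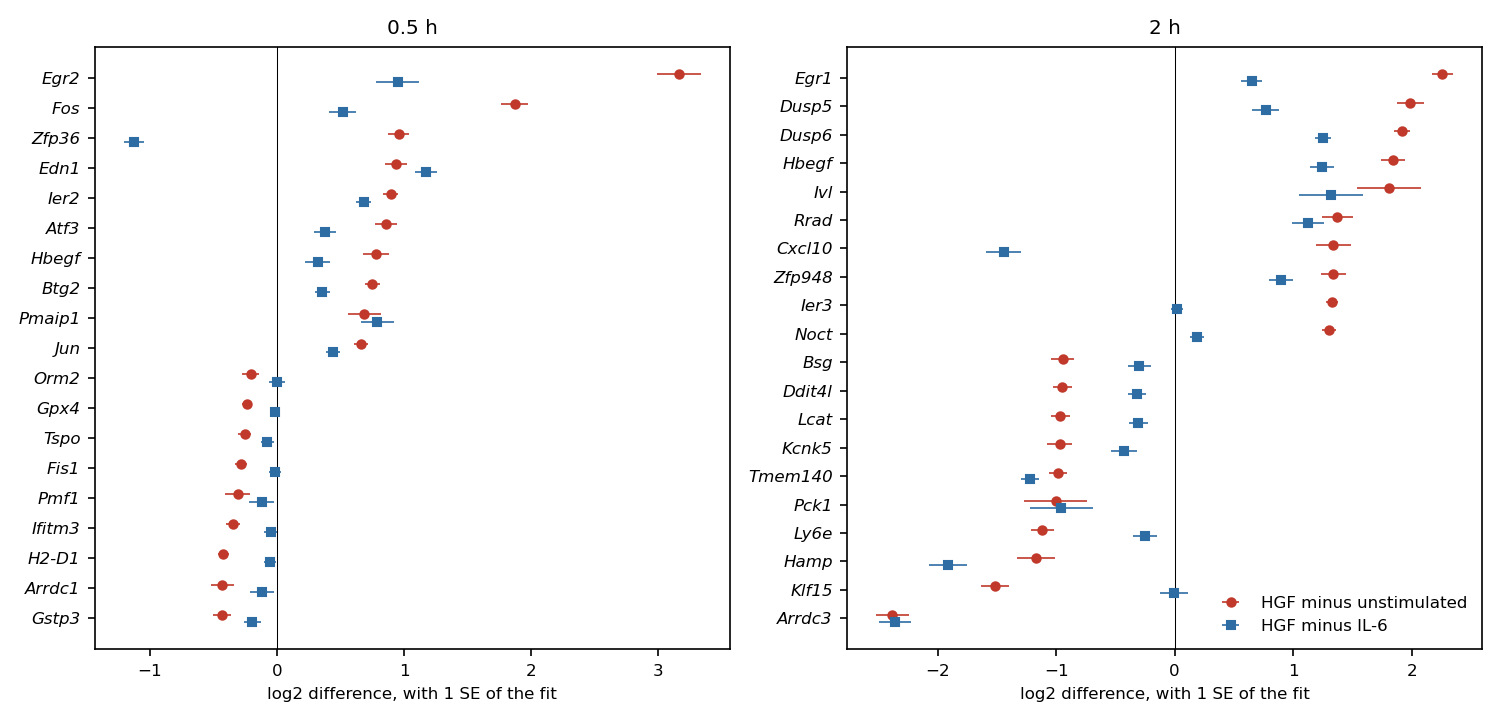
Log2 differences of the named genes with 1 SE of the fit, for HGF minus unstimulated (circles) and HGF minus IL-6 (squares) at 0.5 h and 2 h. Both comparisons use the same HGF arrays. Edn1, Dusp6, Hbegf, Ivl and Arrdc3 are far from 0 in both, whereas Ier3 and Klf15 are near 0 against IL-6.

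The deepest fall of the early response was that of Arrdc3, an alpha-arrestin that helps to internalise beta-adrenergic receptors and is a FOXO target. It read 6.31 and 6.23 without stimulus and 6.19 and 5.88 with HGF at 0.5 h. At 2 h it read 7.54 and 7.47 without stimulus, 5.26 and 4.99 with HGF, 7.67 and 7.29 with IL-6 and 5.27 and 5.13 with both. All 4 arrays with HGF lay below all 4 without it. The 2 h differences were -2.38 from no stimulus (SE 0.14, adjusted p = 3.05e-18), -2.36 from IL-6 and -2.28 on top of IL-6. Unstimulated cells changed by 1.23 between the hours, which widened the gap.

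Genes that FOXO factors drive or insulin controls did not move as a block. Among 25 tested, 6 rose and 1 fell at 0.5 h, and 6 rose and 7 fell at 2 h, with medians of 0.07 and -0.02. Of all genes, 20.2% and 31.1% differed at those hours. Of the 2 h changes 3 rises and 5 falls were also found on top of IL-6. Pck1, the rate-limiting enzyme of gluconeogenesis, read 5.83 and 5.50 without stimulus, 4.46 and 4.86 with HGF, 5.55 and 5.69 with IL-6 and 4.67 and 4.44 with both at 2 h. Arrays with HGF lay below the rest, by -1.003 (SE 0.27, adjusted p = 0.00279), by -0.96 against IL-6 and by -1.06 on top of it. The call was lost without the first unstimulated array (-0.84) or the first HGF array (-0.80). Other Pck1 probe sets, below the filter, gave -0.29 and 0.02 at 2 h. G6pc, another enzyme of that pathway, was at 4.07 and 4.22 without and 4.05 and 3.91 with HGF. Its difference was -0.16 with an adjusted p of 0.578. These G6pc values lie near the intensity cut, where a fall may not be seen.

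Irs2, the insulin receptor substrate that FOXO1 induces, fell at 2 h with a difference of -0.35 (adjusted p = 0.00898), of -0.50 from IL-6 and of -0.74 on top of it. The first of these was lost without the second unstimulated array (-0.19) or the first HGF array (-0.31). Igfbp1, a FOXO1 target in liver, went up instead: it read 12.37 and 12.41 without stimulus, 13.13 and 13.22 with HGF and 12.90 and 12.89 with IL-6. It rose by 0.79 (SE 0.07, adjusted p = 5.39e-13) and 0.28 over IL-6. Cited2, a transcriptional coregulator, rose by 0.46 and 0.60 over IL-6. The coactivator Ppargc1a fell, with -0.57 from no stimulus, but lay 0.48 above IL-6. Insr gave 0.42 at 2 h, and 0.08 as the mean over its probe sets.

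Among BMP and Notch targets, Hamp (hepcidin), the iron hormone that BMP and IL-6 both induce, read 7.01 and 7.23 without stimulus, 6.18 and 5.73 with HGF, 7.82 and 7.92 with IL-6 and 6.70 and 6.70 with both at 2 h. Levels were lower with HGF in the absence and in the presence of IL-6, and the 4 groups did not overlap. The differences were -1.17 (SE 0.16, adjusted p = 1.07e-07), -1.91 from IL-6 and -1.17 on top of IL-6, after -0.75 from no stimulus at 0.5 h. A dimmer Hamp probe set gave -0.47 from no stimulus at 2 h. Hamp2 is a close paralogue, so signal may be shared. Id3, also a BMP target, rose by 0.54 and 0.81 (0.25 and 0.87 over IL-6). The Notch target Hes1, chosen after its values were seen, rose by 0.63 at 2 h. In the list of 30 BMP, TGF-beta, Notch and Wnt genes 4 rose and 2 fell at 0.5 h, and 9 rose and 4 fell at 2 h, with medians of 0.02 and 0.00. Among all genes 20.2% and 31.1% differed at those hours.

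Of 21 liver transcription factors tested, 4 rose and 3 fell at 0.5 h, and 3 rose and 9 fell at 2 h, where 15.2% of all genes were higher and 15.9% lower. Rises and falls were not tested against each other. The list had medians of 0.09 and -0.23. On top of IL-6, 4 of those 9 also fell. Rxra, the common partner of nuclear receptors, read 8.28 and 8.22 without stimulus, 7.77 and 7.83 with HGF and 8.07 and 8.08 with IL-6. Its difference was -0.44 (SE 0.06, adjusted p = 1.61e-07), and -0.28 from IL-6 and on top of IL-6. Onecut1 (HNF6), chosen after its values were seen, read 6.91 and 6.93, then 6.30 and 6.49 with HGF and 7.72 and 7.81 with IL-6, and differed by -0.52 from no stimulus, -1.37 from IL-6 and -1.02 on top of it. Cebpa, a factor of hepatocyte differentiation, fell by differences of -0.26 and -0.39, and IL-6 gave -0.16 and -0.61.

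Other falls were of similar size in IL-6 cells, which share the labelling class of the HGF arrays. Nr1h3 (LXR alpha), the oxysterol receptor, read 8.15 and 7.99 without stimulus, 7.52 and 7.24 with HGF and 7.36 and 7.26 with IL-6 at 0.5 h. At 2 h it read 8.00 and 7.99, 7.10 and 7.12, and 7.25 and 7.46. The unstimulated arrays were high and all others low at both hours. HGF differences were -0.69 and -0.88, those of IL-6 -0.76 and -0.64, and HGF differed from IL-6 by 0.07 and -0.24, with adjusted p of 0.848 and 0.131. Klf15, a glucocorticoid-induced factor of amino acid catabolism, lay between 6.34 and 6.60 on all 8 arrays of the 4 groups at 0.5 h. At 2 h it read 5.09 and 4.94 with HGF and 4.97 and 5.06 with IL-6 beside 6.51 and 6.55 without stimulus. It fell by -1.52 (SE 0.12, adjusted p = 5.8e-14), differed from IL-6 by -0.00, and fell on top of IL-6 by -0.71.

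Ly6e, a membrane-anchored protein, Lcat, the cholesterol-esterifying enzyme of plasma, and Bsg (basigin), a chaperone of lactate transporters, showed the same form as Nr1h3. They had 2 h HGF differences of -1.11, -0.96 and -0.95 and IL-6 differences of -0.86, -0.66 and -0.65. They differed from IL-6 at 2 h by -0.25, with an adjusted p of 0.119, by -0.31 and by -0.30, the last pair past the threshold. A dimmer Ly6e probe set gave -0.21 from no stimulus at 2 h. Of the 15 genes past a 2-fold fall at 2 h, 3 passed against IL-6: Arrdc3, Hamp and Pck1. Tmem140, Kcnk5, a potassium channel, and Ddit4l, an inhibitor of mTORC1, fell by -0.98, -0.97 and -0.95 and lay below IL-6 by -1.22, -0.43 and -0.32, all 3 past the threshold.

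MYC, its partners and nucleolar genes gave 8 rises and 4 falls among 27 at 0.5 h, and 13 and 5 at 2 h, with medians of 0.11 and 0.10. Over all genes, 11.6% were higher and 8.59% lower at 0.5 h, and 15.2% and 15.9% at 2 h. Of the 27, 1 and 2 stood above IL-6 cells at 0.5 and 2 h, where 0.207% and 5.82% of all genes did. Myc rose by 0.34 and 0.44 and differed from IL-6 by 0.08 and 0.07, neither past the threshold. The nucleolar proteins Nop58 and Nolc1 rose by 0.57 and 0.53 at 2 h, and differed from IL-6 by 0.02 and 0.22. Other Nolc1 probe sets above the filter gave rises of 0.05 and 0.06 over no stimulus. G1 cyclins, their inhibitors and growth arrest genes gave 6 rises and 5 falls among 27, then 7 and 6, with medians of 0.10 and -0.03. Apoptosis regulators gave 4 rises and 3 falls among 19, then 4 and 7, with medians of -0.04 and -0.11. Birc2 (cIAP1), an inhibitor of death receptor signalling, read 9.95 and 10.00 without stimulus, 9.24 and 9.21 with HGF, 9.82 and 10.03 with IL-6 and 9.32 and 9.12 with both at 2 h. All arrays with HGF were low and all without it high, with differences of -0.75 (SE 0.06, adjusted p = 1.74e-13), -0.70 from IL-6 and -0.71 on top of IL-6. Mcl1 rose by 0.15 and 0.34.

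NRF2 and heat shock genes gave 2 rises and 3 falls among 17 at 0.5 h and 8 rises and 3 falls at 2 h, medians 0.04 and 0.16, and 5 of the 8 also rose on top of IL-6. Osgin1, an oxidative stress gene, fell at 0.5 h with a difference of -0.23 and rose by 0.44 at 2 h (0.88 over IL-6). The cochaperone Dnajb1 rose by 0.41 at 2 h, with another probe set at -0.13. The 7 lists left, on NF-kB feedback, clock, integrated stress response, sterols, glucose uptake, secreted liver proteins and xenobiotic enzymes, held 17 to 23 tested genes each. They gave 1 to 5 rises and 0 to 6 falls at 0.5 h and 0 to 7 rises and 1 to 7 falls at 2 h, with medians from -0.08 to 0.11. For these and the NRF2 list, the shares of all genes that differed were 20.2% at 0.5 h and 31.1% at 2 h.

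**Figure D5:**
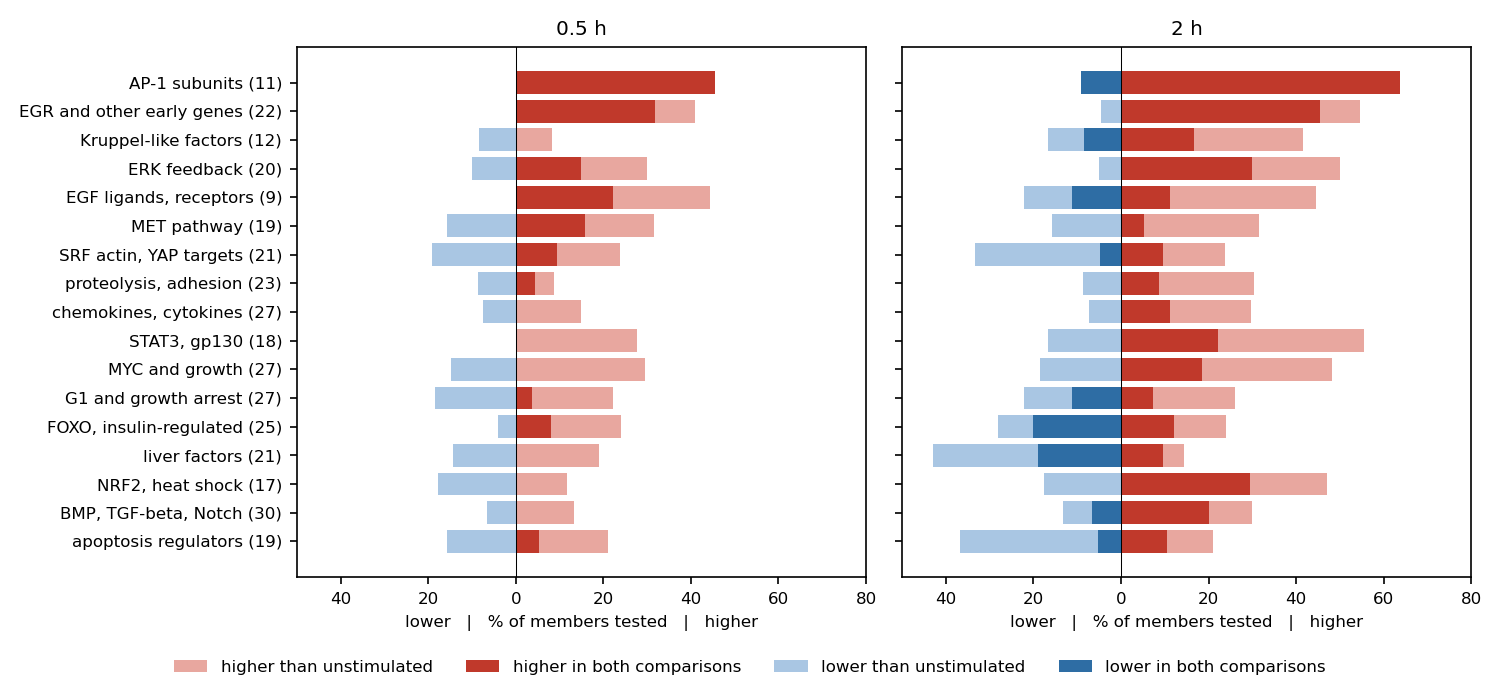
Share of each list's tested members (number in brackets) that were higher (right) or lower (left) with HGF than without stimulus at 0.5 and 2 h. Dark bars mark those that also passed in the same direction for IL-6 with HGF minus IL-6. AP-1 subunits are dark throughout, and liver factors reach farthest left at 2 h.

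The HGF difference changed between 0.5 and 2 h, by a test of the change itself, for 355 genes (2.45%), 198 upward (1.36%) and 157 downward (1.08%). This test subtracts differences that cross the same dap labelling classes at both hours. The bioB control does not cancel in this way. It read 8.70 and 8.79 with HGF at 0.5 h, 6.87 and 6.91 with HGF at 2 h, and 8.65 to 8.89 without stimulus. The part of bioB in the counts of this paragraph was not tested. The test of the change gave 197 genes without the first unstimulated array of 2 h and 215 without the first HGF array of 0.5 h. Upward changes were led by Ivl (1.65), Zeb2 (1.52), Slc16a6 (1.44), Dusp5 (1.40) and Egr1 (1.33). Downward changes were led by Arrdc3 (-2.14), Egr2 (-1.92), Klf15 (-1.50), Gadd45g (-1.36) and Nap1l3 (-1.16), which assembles nucleosomes. For Edn1 (-0.96), Zfp36 (-0.92) and Jun (-0.85) the 2 h differences were -0.022, 0.041 and -0.19, of which that of Jun passed as a fall. Fos (-0.84) kept a smaller excess of 1.03, while Ier2 (-0.11), Btg2 (-0.03) and Met (-0.02) gave changes that did not pass. Over the same time 747 genes (5.15%) changed in unstimulated cells and 1791 (12.3%) in HGF cells.

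Markers of hepatocytes were present on all arrays, 12 of 13 above the filter on each of the 8, with a summed linear intensity of 81356 to 82959 without stimulus and 77356 to 77424 with HGF at 2 h, and 4 of 12 tested fell. For Kupffer cells and macrophages 10 of 14 markers were above the filter on all 8 arrays. Their sum was 977 to 980 without stimulus and 797 to 888 with HGF at 0.5 h. IL-6 then gave 852 to 869 and both factors 793 to 854. At 2 h it was 908 to 950 without stimulus and 747 to 750 with HGF, where IL-6 gave 883 to 897 and both factors 686 to 725. Of 13 tested 0 rose and 1 fell at 0.5 h, and 1 rose and 1 fell at 2 h. Bile duct markers summed to 374 to 379 without stimulus and 530 to 565 with HGF at 2 h. IL-6 gave 454 to 473 and both factors 595 to 607. That list holds Sox9, the only 1 of its 5 tested genes that rose with HGF. Sums of endothelial and leukocyte markers overlapped between HGF and no stimulus at both hours, and those of stellate cells overlapped at 0.5 h and were 676 to 688 without and 671 to 672 with HGF at 2 h, with 8 of 12, 4 of 11 and 7 of 12 markers above the filter on all 8 arrays. The part of other cells in the chemokine and other results was not tested.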

How the data were processed

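RNA of 60 samples was hybridised to Affymetrix Mouse Genome 430 2.0 arrays. Values are log2 intensities of 45101 probe sets, deposited by the authors. The labels do not say how they were summarised and scaled (not given in the sources used here). Medians of the arrays lay between 4.88 and 4.97, and the number of arrays limits precision.

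Of the probe sets, 34958 carry 1 gene symbol, 932 several and 9211 none. A gene was read from its brightest probe set and kept if above the array's 40th percentile on at least 2 arrays. limma 3.58.1 (R 4.3.3) fitted 1 mean per group (29 groups, 31 residual degrees of freedom) with a trended prior, and p-values were adjusted by Benjamini-Hochberg over 14513 genes per comparison. The script was tested on simulated data.

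Members and lists were chosen with earlier results of these data known. Named genes were, per hour, the 10 largest rises and falls called in both HGF minus unstimulated and IL-6 with HGF minus IL-6, with HGF arrays beyond both unstimulated ones, the 5 largest changes each way between hours, the 4 members per list with the smallest F-test p, and a short fixed set. Genes outside this rule, chosen after their values were seen, are Ier5, Dusp1, F3, Adamts1, Plk2, Fgf21, Angptl4, Ctse, Lgals9, Rnf39, Habp2, Mlf2, Dusp4, Spry2, Spry4, Nrg4, Cxcl2, Cxcl3, Cxcl5, Il6ra, Thbs1, Plat, Malat1, Nipbl, G6pc, Ppargc1a, Hes1 and Onecut1. Spry1 was added in the same way. Promoters are RefSeq's (GRCm38.p6). Alternatives changed the normalization, filter, probe set, arrays fitted, variance model, minimum fold, a dap covariate, a replicate block and single arrays.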

Additional observations from a re-analysis of the deposited data

Results flagged for a closer look

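The HGF difference at 2 h differed from that at 0.5 h for 355 genes by the test of this change across all genes. Values below are log2 changes in the HGF difference, 2 h minus 0.5 h, for the genes described above that passed it.

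The change was upward by 1 or more for Ivl (1.65), Zeb2 (1.52), Slc16a6 (1.44), Dusp5 (1.40), Egr1 (1.33), Rrad (1.23), Fosl1 (1.19), Dusp6 (1.18), Klf10 (1.12), Hbegf (1.06), Zfp948 (1.06) and Cxcl10 (1.03). Smaller upward changes were those of Sox9 (0.93), Cish (0.88), Noct (0.88), Phlda1 (0.81), Ier3 (0.77), Tgif1 (0.75), Igfbp1 (0.74), Spred1 (0.72), Lif (0.70), Osgin1 (0.68), Maff (0.58), Plaur (0.54), Socs3 (0.53), Cxcl1 (0.51), Klf16 (0.49), Nop58 (0.44), Ankrd1 (0.41), Cd44 (0.39), Cited2 (0.36), Epha2 (0.35), Nolc1 (0.35), Ccn1 (0.28) and Dnajb1 (0.27).

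The change was downward for Arrdc3 (-2.14), Egr2 (-1.92), Klf15 (-1.50), Gadd45g (-1.36), Nap1l3 (-1.16), Kcnk5 (-1.02), Edn1 (-0.96), Ddit4l (-0.93), Birc2 (-0.92), Zfp36 (-0.92), Jun (-0.85), Fos (-0.84), Tmem140 (-0.75), Gab1 (-0.37) and Rxra (-0.33). For Egr2, Fos, Zfp36 and Edn1 it marks an excess that was larger at 0.5 h, and for Arrdc3, Klf15 and Kcnk5 a fall that passed at 2 h and not at 0.5 h. For Jun, Gadd45g, Gab1 and Birc2, a gene higher at 0.5 h was lower or not changed past the threshold at 2 h. Gab1 has probe sets of opposite sign. The remaining downward genes are given as values.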

How the results depend on the processing

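Dependence on settings was strongest at 0.5 h. With the dap 3' minus 5' difference of each array as a covariate, higher and lower genes numbered 266 and 136 in place of 1687 and 1246 at 0.5 h, and 981 and 893 in place of 2207 and 2303 at 2 h. Genes called in both comparisons were then 48 higher and 4 lower at 0.5 h, and 139 lower at 2 h. The slope of this covariate comes only from dap differences between arrays of the same group. It is then carried across the gap between unstimulated and HGF arrays, so these counts cannot measure the part of labelling. Requiring a call against IL-6 too, an alternative chosen after seeing the data, left 24 and 3 genes at 0.5 h and 571 and 158 at 2 h, and of those in both comparisons 18 and 0, then 309 and 74. A 1.5-fold minimum left 28 and 131 genes at 0.5 h, 181 and 265 at 2 h, 11 and 187 against IL-6, 57 and 109 for IL-6 with HGF minus IL-6, 6 higher and 0 lower in both at 0.5 h, 40 and 16 at 2 h, and 118 of 355 changes between hours. Averaging probe sets gave 849 higher genes at 0.5 h, with 115 and 345 higher in both at 0.5 and 2 h, and turned Tgfa to -0.088 and Gab1 to -0.043 at 0.5 h. Quantile normalization gave 236 genes for IL-6 with HGF minus IL-6 at 0.5 h, with 42 higher and 24 lower in both, and the fit to 16 arrays gave 22 lower in both. The cause was not tested for any of these.

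Leaving out single arrays gave 961 to 1448 higher and 767 to 1053 lower genes at 0.5 h, and 1579 to 1807 higher and 1579 to 1892 lower at 2 h. It gave 23 to 153 and 638 to 873 genes against IL-6, 28 to 867 and 558 to 769 for IL-6 with HGF minus IL-6, 16 to 256 higher and 0 to 15 lower in both at 0.5 h, 240 to 485 higher and 99 to 221 lower in both at 2 h, and 197 to 279 changes between hours. A group left with 1 array was assumed to vary like the others.

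Of 1259 values for 97 named genes over 17 settings, 1220 kept direction and call, 37 lost the call and 2 reversed. Most of these genes were chosen by the size or test of their change on these same arrays. Their kept calls therefore do not describe other genes. With the replicate number as a block, 1720, 1255, 2220 and 2323 genes were called, of which 1662, 1234, 2184 and 2281 were among those of the fit without it. Same-numbered arrays deviated together at r of -0.11 to 0.07 over 6 pairs, so the numbers were not taken to pair samples.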
